A study of Homo sapiens with 12 samples.

Results

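The genes described here are the SOX, PAX, TBX and GATA transcription factors, families that set up and maintain cell lineages in the embryo. Members were the autosomal protein-coding genes of the RefSeq GRCh38.p14 gene table whose symbol is SOX, PAX, TBX or GATA followed by a number. The rule found 44 genes among 19126 autosomal protein-coding genes: 18 SOX, 9 PAX, 12 TBX and 5 GATA genes. A summit is the highest point of a called accessible site, and summits were counted for a gene when they lay inside it or within 10 kb of it. The sites came from ATAC-seq, in which a transposase cuts and tags open DNA, on HT1080 cells, an established human fibrosarcoma line. Cells had spent 48 h in rat tail type I collagen at 0.3 mg/mL (low), 1.0 mg/mL (medium) or 1.7 mg/mL (high), with 4 libraries per concentration. All 12 libraries came from cells given 20 µM GM6001, an inhibitor of matrix metalloproteinases, so no group lacked the inhibitor. The deposited peak list pools the libraries, and the values below have no replicates, no depth per library and no comparison between concentrations; sites open at 1 concentration and at all 3 cannot be told apart.

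Each family is defined by its DNA-binding domain: SOX proteins bend DNA through a high-mobility-group box, PAX proteins carry the paired domain, TBX proteins the T-box and GATA proteins zinc fingers that read the sequence they are named after. Most of these genes are active in few tissues, and mesenchymal cells such as fibroblasts normally use only some of them. Their promoters are often rich in CpG dinucleotides. CpG-rich promoters of housekeeping genes are open in most cell types, while those of developmental regulators are known targets of the Polycomb repressor proteins; no histone mark was measured here.

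The mesenchymal label of the cells was set against marker genes. A summit within 1000 bp of a start, or of a gene end where no start was listed, was present at 6 of 9 fibroblast markers (66.7%), near the 68.5% of all autosomal coding genes at listed starts and the 66.6% at gene ends. The values were 15.1 at FN1, 10.0 at COL6A1, 9.96 at CD44, 6.64 at VIM, 6.27 at TWIST1 and 3.70 at PDGFRB, and THY1, COL1A1 and PRRX1 had none there. It was present at 2 of 6 epithelial markers, EPCAM with 2.11 and KRT18 with 1.75, and CDH1, KRT8, GRHL2 and ESRP1 had none there. Of the other lists, 2 of 4 blood markers (SPI1 with 8.44 and CD3E with 14.5), 1 of 3 endothelial markers (KDR with 3.05) and 3 of 3 neural markers had a summit there. The highest of all 25 markers was the neural gene SYP with 17.3, and these counts do not single out mesenchymal genes. Enrichment is the fold of the fragment pileup at a summit over the local background, and it and the −log10 q are the values the authors deposited for each peak.

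The promoters that best show the contrast among members are printed here from RefSeq, 300 bases each on GRCh38.p14, from 250 bases before a start to 50 bases from it, 5′ to 3′ on the gene's strand, with CpG dinucleotides in capitals. The first 4 had strong summits inside the printed stretch, and the other 3 had no summit within 1000 bp of the start. For GATA3 the start shown is the fourth of 6 listed starts, which is the one beside its strongest summit, and for the others it is the 5′-most.
SOX6, chr11:16738428-16738727, minus strand: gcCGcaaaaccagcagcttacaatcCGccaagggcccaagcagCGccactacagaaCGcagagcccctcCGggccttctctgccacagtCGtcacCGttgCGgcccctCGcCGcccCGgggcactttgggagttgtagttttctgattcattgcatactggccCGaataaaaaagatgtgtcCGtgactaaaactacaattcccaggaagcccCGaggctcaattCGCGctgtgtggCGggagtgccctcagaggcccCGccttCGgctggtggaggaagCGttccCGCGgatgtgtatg
TBX18, chr6:84764549-84764848, minus strand: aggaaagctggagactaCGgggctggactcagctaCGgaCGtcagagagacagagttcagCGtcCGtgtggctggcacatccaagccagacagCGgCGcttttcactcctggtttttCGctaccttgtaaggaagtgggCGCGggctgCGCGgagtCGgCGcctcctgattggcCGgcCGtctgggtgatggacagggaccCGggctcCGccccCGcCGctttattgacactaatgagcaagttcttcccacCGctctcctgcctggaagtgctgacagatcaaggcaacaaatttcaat
GATA6, chr18:22169339-22169638, plus strand: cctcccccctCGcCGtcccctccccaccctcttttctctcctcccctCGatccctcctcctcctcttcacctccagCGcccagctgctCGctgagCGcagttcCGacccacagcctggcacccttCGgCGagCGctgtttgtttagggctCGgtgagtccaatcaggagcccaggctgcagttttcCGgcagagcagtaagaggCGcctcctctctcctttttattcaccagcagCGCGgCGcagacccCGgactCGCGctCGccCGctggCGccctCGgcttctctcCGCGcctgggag
GATA3, chr10:8053391-8053690, plus strand: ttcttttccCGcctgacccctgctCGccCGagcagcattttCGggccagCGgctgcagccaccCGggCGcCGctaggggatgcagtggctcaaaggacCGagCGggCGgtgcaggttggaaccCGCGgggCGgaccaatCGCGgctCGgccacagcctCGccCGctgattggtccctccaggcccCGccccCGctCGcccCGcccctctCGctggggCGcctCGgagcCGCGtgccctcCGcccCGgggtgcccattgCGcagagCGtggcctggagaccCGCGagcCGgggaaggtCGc
SOX2, chr3:181711675-181711974, plus strand: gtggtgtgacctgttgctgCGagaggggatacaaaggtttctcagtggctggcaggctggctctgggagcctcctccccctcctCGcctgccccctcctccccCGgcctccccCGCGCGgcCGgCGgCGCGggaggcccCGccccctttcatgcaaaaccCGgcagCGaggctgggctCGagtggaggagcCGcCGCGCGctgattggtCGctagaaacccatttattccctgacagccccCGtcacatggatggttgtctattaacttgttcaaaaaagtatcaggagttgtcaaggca
PAX3, chr2:222298949-222299248, minus strand: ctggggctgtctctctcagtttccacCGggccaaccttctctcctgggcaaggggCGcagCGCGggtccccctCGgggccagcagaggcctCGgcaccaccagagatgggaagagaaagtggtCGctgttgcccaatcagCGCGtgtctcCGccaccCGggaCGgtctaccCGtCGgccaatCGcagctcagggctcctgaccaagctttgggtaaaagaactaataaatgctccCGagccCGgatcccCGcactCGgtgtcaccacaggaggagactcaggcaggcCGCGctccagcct
TBX20, chr7:35254051-35254350, minus strand: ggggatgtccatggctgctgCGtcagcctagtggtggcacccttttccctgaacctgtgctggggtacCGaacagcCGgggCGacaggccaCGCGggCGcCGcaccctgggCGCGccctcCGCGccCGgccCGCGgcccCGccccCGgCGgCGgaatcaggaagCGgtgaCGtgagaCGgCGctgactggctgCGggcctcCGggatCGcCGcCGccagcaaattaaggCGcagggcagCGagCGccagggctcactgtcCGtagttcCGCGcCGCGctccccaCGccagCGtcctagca
The SOX6, TBX18, GATA6 and GATA3 stretches hold 22, 21, 25 and 36 CpG. The SOX2, PAX3 and TBX20 stretches hold 20, 21 and 38. In the ratio of observed to expected CpG, which allows for base composition, the first 4 had 0.818, 0.796, 0.824 and 0.865, and the other 3 had 0.667, 0.673 and 0.943. The strongest summits lay at base 155 of the printed SOX6 stretch, base 147 of TBX18, base 159 of GATA6 and base 164 of GATA3, counted from its 5′ end. All 4 were 87 to 104 bp upstream of the start.

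Of the 44 members, 38 (86.4%) had at least 1 summit inside the gene or within 10 kb, against 90.9% of all autosomal protein-coding genes. This share is near the background. The members held 155 summits in 134 intervals, and no summit was shared by 2 members. The median was 3 summits per member, the same as over all genes, and the range was 0 to 12. By gene length, 13 of 16 members under 10 kb had a summit in the window, against a background of 80.8%, as did 20 of 23 members of 10 to 100 kb against 93.8%, and 5 of 5 members over 100 kb against 98.1%. Per 100 kb of gene and window there were 3.82 member summits and 5.37 for all genes. Without the very long genes SOX5 and SOX6, a choice made after their values were seen, the members' rate was 6.18. The rate for all genes keeps its own very long genes, so 6.18 and 5.37 are not like for like. Within each length class the members' rate was the lower. For genes under 10 kb the rates were 10.04 for members and 10.56 for all genes, and for genes of 10 to 100 kb they were 6.223 and 7.097. For genes over 100 kb they were 1.37 and 3.42. Just inside the 10 kb limit lay the summit 9.89 kb from TBX6, with an enrichment of 8.52 and a start of PPP4C within 1000 bp. Just outside the limit were 3 summits 10.52 to 10.77 kb from SOX8, with enrichments of 1.75 to 2.70.

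At starts the members' share was lower than that of all genes. A start was listed in the RefSeq promoter table for 29 members, and 15 of them (51.7%) had a summit within 1000 bp of a listed start, against 68.5% of the 15101 autosomal coding genes with a listed start. An enrichment of at least 10 was reached there by 8 of the 29 (27.6%), against 44.4% of all genes. The other 15 members are TBX15, TBX2, TBX3, SOX7, SOX8, SOX9, SOX10, SOX11, SOX14, SOX15, SOX17, SOX18, PAX1, GATA4 and GATA5, for which either end of the gene stood in. Of these, 5 (33.3%) had a summit at this distance from an end, against 66.6% of all genes measured at either end. These shares are descriptions, and no test was run over the list.

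**Figure D1:**
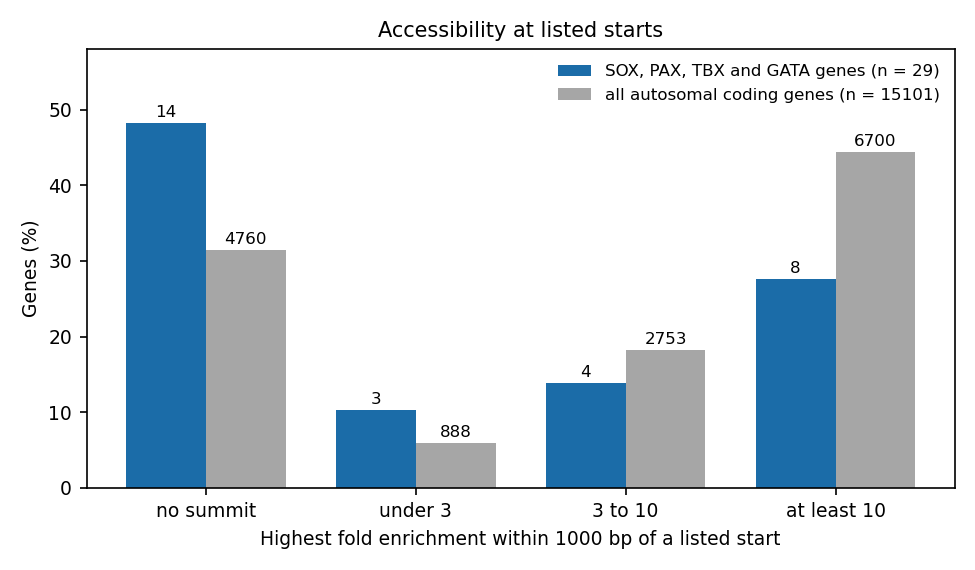
Percentage of genes (y axis) by the highest fold enrichment within 1000 bp of a listed start (x axis), for the 29 members with a listed start (blue) and all 15101 autosomal coding genes with one (grey); numbers on the bars are genes. No summit was found at 14 members (48.3%) and 4760 of all genes (31.5%), and an enrichment of at least 10 at 8 members and 6700 genes.

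The highest enrichment at a listed start had a median of 11.0 over the 15 members and 12.3 over all genes with a summit there. The members' values ran from 1.74 at PAX6 to 17.8 at SOX6. Of the 15 values, 3 were under 3, 4 were between 3 and 10, and 8 were at least 10. The median depended on the start distance: within 500 bp it was 8.53 over 14 members and 12.5 over all genes. Within 2500 bp these medians were 11.0 and 11.9, and at a −log10 q of at least 10 they were 11.4 and 12.7. In the whole window the median of the highest enrichment was lower for the members, 7.72 over 38 genes against 12.4 over all genes, and 16 of 44 members (36.4%) reached 10 against 60.2% of all genes.

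All 5 GATA genes and all 12 TBX genes had a summit in the window, while 14 of 18 SOX and 7 of 9 PAX genes did. Of all genes 90.9% did, and the GATA and TBX counts lie near that share. A summit at the start (or gene end) was found at 3 of 5 GATA, 6 of 12 TBX, 8 of 18 SOX and 3 of 9 PAX genes. The shares over all genes were 68.5% at listed starts and 66.6% at gene ends. The 3 GATA genes with a start summit all had at least 11.1 there. For TBX genes the median at the start was 10.8, for SOX genes 4.44 and for PAX genes 4.20. The families also differ in gene length, with medians of 5.04 kb for SOX and 62.9 kb for PAX genes, and the number of genes per family is small.

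**Figure D2:**
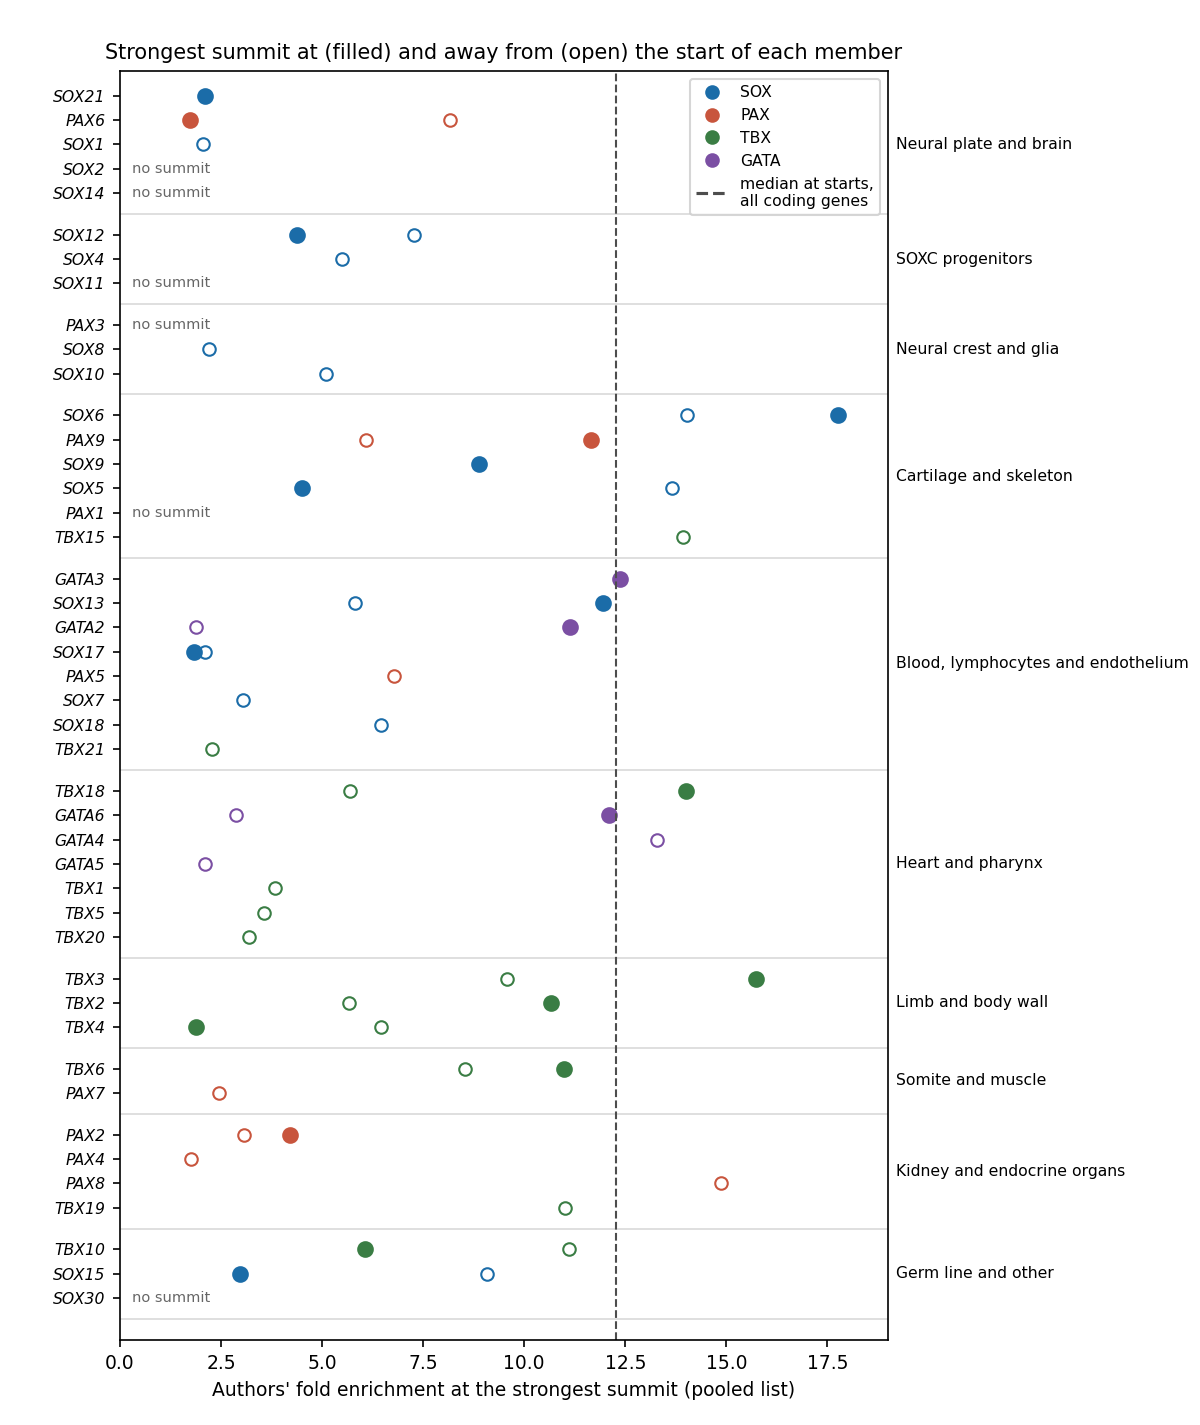
Authors' fold enrichment (x axis) of the strongest summit within 1000 bp of a start or gene end (filled) and of the strongest summit farther away in the window (open) for the 44 members, grouped by lineage and coloured by family; the dashed line is the median at listed starts of all coding genes, 12.3. The neural groups at the top lie left of 10 throughout, and filled points above 10 are found in the skeletal, blood, heart, limb and somite groups.

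Factors of the neural plate and brain had the lowest median of the highest enrichment in the window among the 10 lineage groups, 2.11 over 3 genes. Each gene was placed in 1 group by its best-known role, although most act in several tissues. SOX2, which keeps neural progenitors and pluripotent cells undifferentiated, had no summit within 10 kb, and the nearest lay 68.1 kb away with an enrichment of 3.24. SOX14, a factor of interneurons, also had none, with the nearest at 205.0 kb. SOX1, a marker of the early neural plate, had 2 summits, both with an enrichment of 2.06 and more than 5 kb from its start. At SOX21, a counterplayer of SOX2, the only summit lay 468 bp upstream of the start with 2.11, a pileup of 44 fragments over a background of 20.3, and within 1000 bp of a start of the antisense gene SOX21-AS1. PAX6, the master gene of eye development, had 9 listed starts and 1 weak summit, 1.74, beside the second of them. Its strongest summit, 8.16, lay 9.57 kb beyond the gene's 3′ end in an interval at 31779192 to 31779749 on chromosome 11. That interval is inside ELP4, whose introns are known to hold regulatory elements of PAX6. None of the 5 genes reached an enrichment of 10 anywhere in its window, against 60.2% of all genes and 41.3% of all genes under 10 kb. The group's genes are short, with a median of 2.92 kb, and only 2 of 16 members under 10 kb reached 10. No gene of the SOXC or the neural crest and glia group reached 10 either.

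None of the 3 neural crest and glia genes had a summit at a start or end. Of all genes, 68.5% had one at a listed start and 66.6% at a gene end. PAX3, which specifies neural crest and muscle precursors, had no summit in its 99.1 kb gene or within 10 kb, and the nearest was 19.3 kb away with 9.15. SOX10, which drives melanocyte and glial fates, had 2 summits of 1.78 and 5.10, neither within 1000 bp of a gene end. SOX8, its close relative, had 3 summits of 1.59 to 2.21. Both were measured from gene ends.

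The SOXC genes, which are active in many embryonic progenitors, ranged from 0 to 4 summits. SOX11 had no summit within 10 kb and the nearest was 63.8 kb away. SOX4 had 3 summits of 4.52 to 5.49 in 1 interval 4.40 to 5.05 kb upstream of its listed start and none at the start itself. SOX12 had 4 summits, with a highest enrichment of 7.28 and pileups of up to 1618. Its start summit had 4.38 from a pileup of 982, since the local background there was 223.3 fragments, 11 times the lowest in the list. A start of NRSN2-AS1 lay within 1000 bp of both the start summit and the strongest summit.

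Cartilage and skeleton factors included the strongest start among members. SOX6, which with SOX5 and SOX9 builds cartilage, reached 17.8 at its 5′-most start, where 1063 fragments piled up over a background of 58.9. The called interval spans 16738203 to 16739049 of chromosome 11. The start of another gene, C11orf58, lies within 1000 bp of that summit. SOX5 had only 4.50 at its listed start, with a pileup of 95. SOX9, the main regulator of chondrocytes, had 8.88 from a pileup of 690, 58 bp outside a gene end, with an end of SOX9-AS1 within 1000 bp, and 2 further summits of 2.80 and 3.49 within 1000 bp of its ends. PAX9, needed for teeth and vertebrae, had 11.7 and a pileup of 822 at the second of its 2 listed starts. TBX15, a factor of limb and skull mesenchyme, had no summit at an end but 1 of 13.9 inside the gene. PAX1, which acts with PAX9 in the vertebrae, had no summit within 10 kb and its nearest was 39.5 kb away.

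In the blood, lymphocyte and endothelium group, 3 of 8 genes (37.5%) had an enrichment of at least 10 at a start. This is near the shares over all genes, 44.4% at listed starts and 40.1% at gene ends. GATA3, a factor of T cells and of several epithelia, had 12.4 with a pileup of 593. GATA2, which maintains blood stem cells, had 11.1 with a pileup of 546. At SOX13, a relative of SOX5 and SOX6 studied in T cells, the value was 11.96 with a pileup of 579, 74 bp inside the gene. The 3 endothelial SOXF genes were low near their ends: SOX17 had 1.83 within 1000 bp of an end, and SOX7 and SOX18 had no summit there, with highest values of 3.05 and 6.45 in the window. PAX5, the B-cell identity factor, had 8 summits of 2.44 to 6.78 spread through its gene and none at its start. A start of LOC105376031 lay within 1000 bp of the strongest. TBX21, the T-bet gene of type 1 helper T cells, had 1 summit of 2.28, 9.6 kb from its start.

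In the heart and pharynx group 2 of 7 genes (28.6%) had a start summit, both above 12. Over all genes the shares with a summit were 68.5% at listed starts and 66.6% at gene ends. TBX18, expressed in mesenchyme of the venous pole of the heart and the urinary tract, had 14.0 with 884 fragments at its start. Its interval spans 84763531 to 84764925 of chromosome 6. GATA6, a factor of heart and gut endoderm, had 12.1 with 833 fragments. Its interval spans 22169028 to 22170773 of chromosome 18, and a start of GATA6-AS1 lay within 1000 bp. The other 5 genes had no summit at the start or ends. TBX5, which patterns the heart and forelimb, had 1 summit of 3.56, 52.1 kb from its nearest listed start. TBX20 had 1 of 3.19 and TBX1, the gene of the pharyngeal arches, had 3 of 1.72 to 3.83. GATA5 had 7 summits, none above 2.10. At GATA4 the highest of 8 summits was 13.3, 9.7 kb from the gene, with an end of NEIL2 within 1000 bp, and the highest inside the gene was 6.47.

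Of the 3 limb and body wall factors, TBX3 and TBX2 had values above 10 at a gene end. Over all genes 40.1% reached 10 at a gene end and 44.4% at a listed start, and 3 genes are few for a comparison. TBX3, which acts in limb and mammary gland and represses senescence genes, had 15.7 from a pileup of 2810, the highest pileup at any member's start or end. Its interval spanned 114683960 to 114684946 on chromosome 12, and the summit lay 224 bp beyond a gene end and inside TBX3-AS1. TBX2, its closest relative, had 10.7 and a pileup of 754, with an end of TBX2-AS1 within 1000 bp. TBX4, the hindlimb and lung factor that neighbours TBX2 on chromosome 17, had 9 summits, the most of any TBX gene, but 3 near its listed start had only 1.72 to 1.88. The strongest TBX4 summit, 6.46, lay 5.7 kb past the gene's end.

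The remaining groups gave few strong starts. TBX6, which commits cells to somites, had 11.0 and a pileup of 1162 at its start, with an end of YPEL3 within 1000 bp. PAX7, the gene of muscle stem cells, had 3 summits of 1.68 to 2.44, all more than 60 kb from the start. PAX2, needed for the kidney, had 4.20 and a pileup of 113 at the second of 2 listed starts, the only start summit among the 4 kidney and endocrine genes. PAX8, a factor of thyroid and kidney, had no summit within 1000 bp of its start. PAX4, of the endocrine pancreas, had 2 summits of 1.74 and 1.75. TBX19, of the pituitary, had 3 summits of 2.77 to 11.0 away from its start. SOX30, of the male germ line, had no summit within 10 kb. SOX15 had 2.97 within 1000 bp of an end, at a summit inside MPDU1 and within 1000 bp of an end of MPDU1. Its other end summit, 2.49, had an end of FXR2 within 1000 bp. Its strongest summit, 9.08 with a pileup of 3437, lay 8.70 kb away within 1000 bp of starts or ends of CD68 and EIF4A1. TBX10 had 6.07 at its start, and its strongest summit, 11.1, had a start of NUDT8 within 1000 bp.

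In several members the start with a summit was not the outermost. Of the 9 members with more than 1 listed start, GATA2, GATA3, PAX2, PAX6 and PAX9 had their start summit only at a later start, 4.3 to 10.2 kb from the 5′-most. For GATA3 the strongest start summit was at the fourth of 6 starts, 8.3 kb in, with a start of the divergent gene GATA3-AS1 within 1000 bp. A weaker GATA3 summit, 1.56, lay 361 bp from a different listed start. For GATA2 the start summit was at the second of 2, 4.7 kb in. SOX6 had its summit at the 5′-most start, and SOX30, PAX4 and TBX5 had none at any. Counting the 5′-most start alone, an alternative added once the data had been seen, left 10 of 29 members (background 65.5%) with a start summit. With any listed start it was 15 of 29 (background 68.5%). Of the 15101 genes with a listed start, 9896 had a summit at the 5′-most start and 10341 at any listed start. Genes with only 1 listed start are in both counts.

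**Figure D3:**
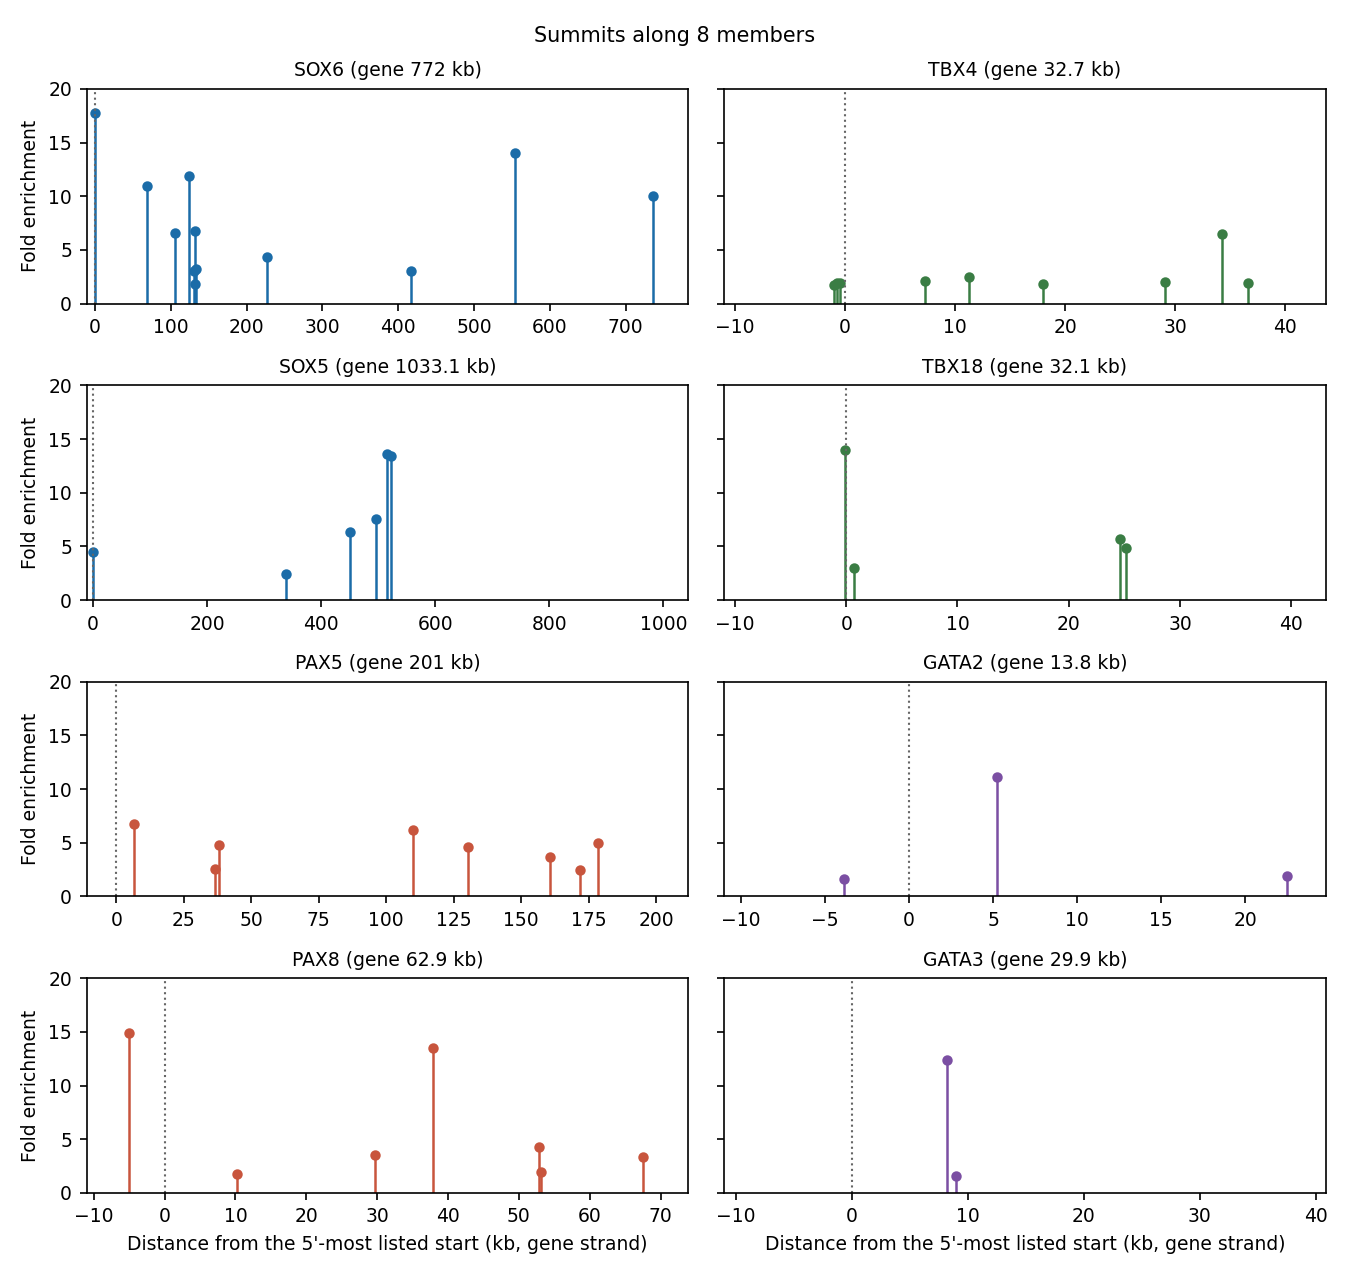
Fold enrichment (y axis) of each summit against its distance in kb from the 5′-most listed start, on the gene's strand (x axis, scaled per panel), for SOX6, SOX5, PAX5, PAX8, TBX4, TBX18, GATA2 and GATA3. The dotted line is that start. TBX18 and SOX6 peak on it, GATA2 and GATA3 peak at 11.1 and 12.4 downstream of it, PAX8 peaks 5.1 kb upstream of it at 14.9, and SOX5 peaks 516.4 kb downstream of it at 13.7.

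Promoter CpG content differed little between members with and without a start summit. At the 5′-most start, 20 of 29 members had an observed to expected CpG ratio of at least 0.6, and 7 of these 20 (35.0%) had a summit within 1000 bp, against 84.4% of the 9979 CpG-rich starts of all genes. Counting any listed start raised the members to 10 of 20 and all genes to 85.8%. Below a ratio of 0.6, 3 of 9 members (33.3%) and 28.7% of all genes had a summit. The median ratio was 0.807 for the 10 members with a summit at that start and 0.744 for the 19 without, whereas over all genes it was 0.846 with and 0.325 without; the difference between members and all genes was not tested. SOX13, with 0.597, and SOX21, with 0.606, lay next to the limit of 0.6. CpG-rich members with no summit at any listed start were PAX7, PAX3, SOX2, SOX30, TBX20, PAX5, TBX5, SOX1, TBX21 and TBX1, with ratios of 0.667 to 1.07.

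**Figure D4:**
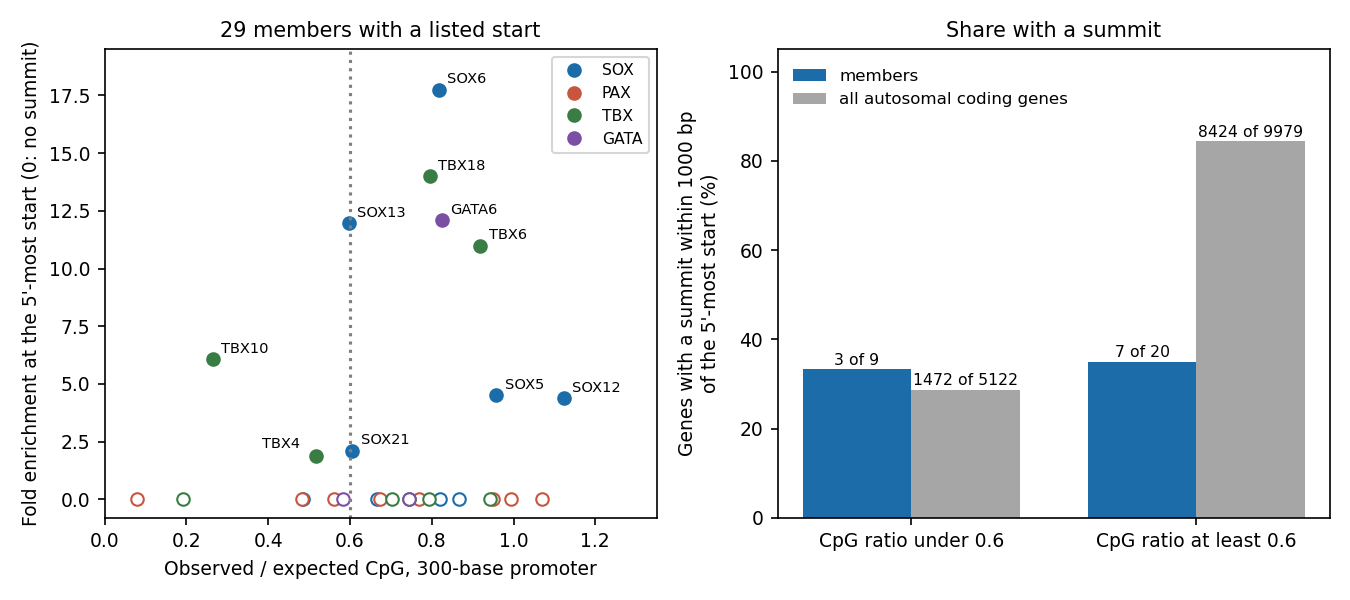
Left, fold enrichment at the 5′-most start (y axis; 0 and open points mean no summit within 1000 bp) against the observed to expected CpG ratio of the 300-base promoter (x axis) for the 29 members with a listed start; the dotted line marks 0.6. Right, percentage of genes with a summit there below and above that ratio for members (blue) and all autosomal coding genes (grey), with 7 of 20 CpG-rich members and 8424 of 9979 CpG-rich genes.

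Short motifs were searched on both strands of the 300-base promoters of the 5′-most starts, and a base could count for more than 1 motif. The GC box GGGCGG was present in 14 of 29 members (48.3%) and 58.7% of all 15101 promoters. The CCAAT box, searched as CCAAT, was present in 13 members (44.8%) and 36.1% of all, and the TATA box TATAAA in 2 members and 9.83% of all. Sites that the families themselves bind were also searched. The letters AGATAA, bound by GATA factors, were found in TBX19 and in 7.66% of all promoters. The letters AACAAT, bound by SOX factors, were found in SOX5 and PAX9 and in 7.17% of all. The letters GGTGTGA, part of the T-box site, were found in SOX2 and in 3.22% of all. The AP-1 site TGANTCA was found in 1 member, SOX6, and in 5.64% of all promoters, and the TEAD site GGAATG in SOX4, GATA3, PAX2 and TBX10 and in 11.8% of all. A match describes letters only.

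Most member summits lay away from starts, as for other genes. For members with a listed start, 85 of 106 summits were farther than 1000 bp from it (80.2%, exact 95% binomial interval 71.3 to 87.3, counting error only), against 81.2% over all genes. Of those 106, 69 lay inside the gene, 19 upstream and 18 downstream. Away from starts and ends, 12 summits in 7 members reached an enrichment of 10, and 10 of the 12 had no end of another gene within 1000 bp. SOX6 held 4 of them, at 10.0, 11.0, 11.9 and 14.0, inside the gene and 68.5 to 736.4 kb from its 5′-most start. SOX5 held 2, at 13.5 and 13.7, lying 6.8 kb apart in the middle of a gene of 1033.1 kb, and 3 times as enriched as its own start. PAX8 held 2: 14.9 with a pileup of 1068, 5.1 kb upstream of its start at 113283703 to 113284453 on chromosome 2, and 13.5 with a pileup of 2685, inside the gene and PAX8-AS1 at 113240208 to 113241803. TBX15 and TBX19 held 1 each, at 13.9 and 11.0. Those at GATA4 and TBX10 had an end of another gene within 1000 bp. The same count away from starts was not made over all genes, so strong distant sites are not shown to be particular to members. In the whole window, 36.4% of members and 60.2% of all genes reached 10.

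Member summits included more weak sites than the list as a whole. Enrichment under 3 was found at 72 of 155 member summits (46.5%, exact 95% interval 38.4 to 54.6) and 31.1% of autosomal summits, and enrichment of at least 10 at 22 (14.2%) and 10.2%. The median pileup was 103 fragments at member summits and 99 at all autosomal summits, with a lowest value of 35 in both. At 8 members, PAX4, SOX1, SOX17, SOX21, TBX21, GATA5, SOX8 and PAX7, no summit reached a −log10 q of 10, and their highest values ran from 2.29 to 6.90. A window summit was present at 38 of 44 members and 90.9% of all genes. At a −log10 q of at least 10 these were 30 and 87.2%. The local background was at the lowest value in the list, 20.3 fragments, at 36 of 155 member summits (23.2%) and at 53.0% of all summits in the list. It was highest at SOX15, 413.7, and at SOX12, 242.9, and there pileups of 1785 and 1115 gave enrichments of 4.31 and 4.58.

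**Figure D5:**
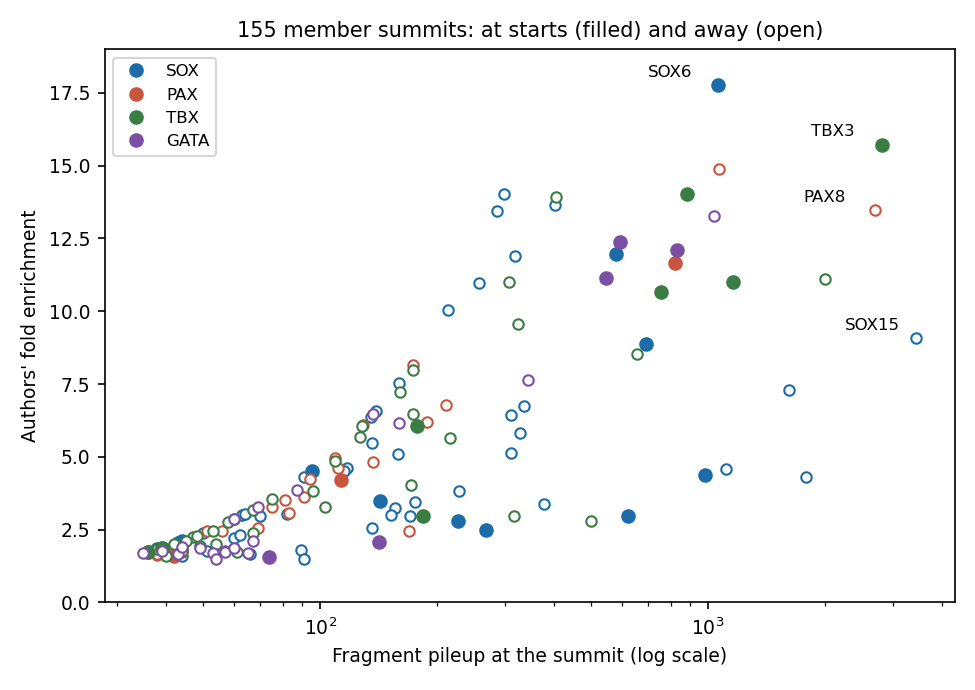
Authors' fold enrichment (y axis) against the fragment pileup recovered at each of the 155 member summits (x axis, log scale), coloured by family, filled within 1000 bp of a start or gene end and open elsewhere. SOX15 has the highest pileup, 3437, at an enrichment of 9.08, and SOX6 the highest enrichment, 17.8, at a pileup of 1063.

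Genes that work with these factors were measured by the same rule, from a list of 38. A summit was present in the window of 35 and at the start or an end of 23 (60.5%), of which 10 had at least 10. Over all genes, 90.9% had a summit in the window, and 68.5% had one at a listed start or 66.6% at a gene end, with 44.4% and 40.1% reaching 10, so the partners' shares were near or below those of all genes. The PAX network, which includes the EYA coactivators and DACH1, had a start summit at 6 of 8, GATA cofactors and partners at 5 of 6, mesenchymal factors at 7 of 10, SOX targets and partners at 3 of 6, T-box and heart partners at 2 of 5 and muscle factors at 0 of 3. The highest were EYA3 with 16.0, MEF2C with 15.6, TEAD1 with 15.1, MITF, the melanocyte regulator that PAX3 and SOX10 activate, with 14.8, and SIX2 with 14.1. HAND2 and ISL1, factors of heart progenitors, and MYF5, a factor of muscle determination, had no summit in the window.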

How the data were processed

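ATAC-seq was measured in 12 libraries of HT1080 cells, 4 at each of 3 collagen concentrations. Per the submitters' processing notes, the build was hg38 and the tools included fastp 0.20.0, Bowtie2 2.4.3, SAMtools, deepTools 3.5.0 and MACS2 2.2.7.1. The deposited list covers all libraries together, so the groups entered no comparison and depth per library is unknown. Its fold enrichment (a ratio to local background), score, −log10 p and −log10 q are values the authors deposited. Pileup and background were solved from enrichment and −log10 p with a pseudocount of 1 and a Poisson upper tail, a model that no label states; the pileup was whole, within 0.05, at all 155 member summits, and the step was tested on simulated data. Genes and promoters came from RefSeq GRCh38.p14, in which 29 of 44 members matched a promoter entry. A summit belonged to a gene inside it or within 10 kb, and to a start within 1000 bp.

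Members and lists were chosen with earlier results of these data known. Full values were given for the 3 members per lineage with the highest enrichment at the start and the member of each family with most summits; members without a summit, or with summits only away from the start, were all named, as were the 5 partner genes highest at the start and those without a summit. Python 3.11.15, pandas 2.3.3, numpy 2.4.6 and SciPy 1.17.1 were used. Alternatives changed the window, start distance, start used, q threshold, interval length and summits counted.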

Additional observations from a re-analysis of the deposited data

How the results depend on the processing

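No paired analysis was possible because the pooled list holds no value per library, and leaving out replicates was not possible for the same reason. The number of member summits was 155; it was 86 in gene bodies alone, 363 within 50 kb and 97 at a −log10 q of at least 10. Summits per 100 kb were 3.82 for all members and 6.18 without SOX5 and SOX6, an alternative added once the data had been seen. No long genes were removed from the rate for all genes. The median highest enrichment in the window, 7.72, was 3.83 in gene bodies alone (8.58 for all genes) and 11.9 within 50 kb (14.2 for all genes), since a wider window holds more summits. Members with a summit in the window numbered 30 to 41 of 44 over the alternatives. At a −log10 q of at least 10 the 30 stood against 87.2% of all genes. In gene bodies alone 31 members had a summit against 67.3% of all genes, and within 50 kb 41 did against 97.0%. Members with a summit at a listed start numbered 10 to 15 of 29, the lowest with the 5′-most start alone, where 65.5% of all genes had one. Over the settings at listed starts the share of all genes ran from 63.7% to 74.0%. Gene ends stood in for starts at 15 members, and the pileup floor of 35 fragments in the list limits what a missing summit shows, since weaker sites are not in it.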

Other observations

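The X-linked genes of the families fall outside the rule. GATA1, the erythroid factor, had 2 summits in its window, the higher with an enrichment of 14.5, and none within 1000 bp of a listed start. SOX3 and TBX22 had no summit within 10 kb. Among the 6 members with no summit in the 10 kb window, SOX30 had 7 summits within 50 kb, with a highest enrichment of 10.9. PAX1 and PAX3 had 1 each, and SOX2, SOX11 and SOX14 had none. Within 50 kb, 41 of 44 members and 97.0% of all genes had a summit.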
